A study of Mus musculus with 10 samples.

Results

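The cytosolic ribosomal protein genes of mouse ES cells were followed across 8 mRNA-seq libraries and 1 pair of ChIP-seq libraries. They were taken as every gene whose symbol starts with Rpl or Rps and a digit, together with Rplp0, Rplp1, Rplp2 and Rpsa, leaving out pseudogene symbols and the Rps6k kinases, with a normalized read count of at least 10 CPM in WT. Of 22713 gene IDs in the mRNA tables, 85 had such a symbol and 82 reached the minimum. These 82 genes comprised 47 of the large ribosomal subunit, 33 of the small subunit and 2 that share the symbol but encode no structural ribosomal protein. The latter were Rps19bp1, whose product binds Rps19, and Rpl7l1, an Rpl7-like protein of ribosome assembly. Just inside the minimum, WT levels were 29.7 CPM for Rps19bp1, 34.4 CPM for Rpl22l1 and 49.7 CPM for Rpl23a. Just outside it were the paralogues Rpl10l at 8.14 CPM, Rpl3l at 1.83 CPM and Rpl39l at 1.07 CPM.

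The mRNA libraries came from ES cells of a pair of lines. Pontinf/f; CreER ES cells, in which 4-hydroxy tamoxifen (OHT) drives removal of floxed Pontin alleles by Cre, gave 1 library each without OHT (WT), after 3 days of OHT (OHT 3D) and after 4 days (OHT 4D). ZHBTc4 ES cells, in which tetracycline (Tc) switches off Oct4, gave 1 library after 2 days of Tc (Tc 2D). The same line, with no Tc named in its labels, gave 2 libraries 4 days after infection with pLKO control lentivirus (shRNA control) and 2 after infection with lentivirus carrying shlinc1253 (linc1253 KD), an shRNA against the lincRNA linc1253. Untreated ZHBTc4 cells gave 1 ChIP library with an antibody against Pontin and 1 with an antibody against GFP as the control. An untreated ZHBTc4 mRNA library was not analysed here, so WT of the other line and the shRNA control were both set beside Tc 2D.

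Each ribosome holds a fixed set of ribosomal proteins, and in growing cells their mRNAs are among the most abundant of all. The large subunit carries the peptidyl transferase centre and the P stalk, which recruits translation factors, and the small subunit carries the decoding site. In mammals these mRNAs typically start at a C within a run of pyrimidines, the terminal oligopyrimidine (TOP) motif, through which mTOR signalling controls their translation. Their genes have left many processed pseudogenes in the genome, which are near-identical to the mRNA and can take up its reads.

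The start of these genes can be seen in the promoter windows of NCBI RefSeq (build GRCm38.p6), which reach from 250 bases before to 50 bases after each listed start. Windows were found for 61 of the 82 genes, 72 windows in all, and 52 genes had exactly 1. Shown here, from 60 bases before to 20 bases after the start, are the 2 of these 52 with the highest Pontin over GFP ChIP ratio (Rpl38 and Rpl10) and the 2 with the largest falls at Tc 2D (Rps3a, named Rps3a1 by RefSeq, and Rplp0). Capitals mark the searched motifs that lie within the stretch.
Rpl38, chr11:114668520-114668599, plus strand: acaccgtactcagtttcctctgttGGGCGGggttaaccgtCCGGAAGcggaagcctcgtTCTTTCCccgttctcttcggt
Rpl10, chrX:74270756-74270835, plus strand: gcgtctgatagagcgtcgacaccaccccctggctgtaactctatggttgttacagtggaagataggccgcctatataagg
Rps3a, chr3:86142649-86142728, minus strand: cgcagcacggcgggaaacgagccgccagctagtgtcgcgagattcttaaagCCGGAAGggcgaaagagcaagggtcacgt
Rplp0, chr5:115559407-115559486, plus strand: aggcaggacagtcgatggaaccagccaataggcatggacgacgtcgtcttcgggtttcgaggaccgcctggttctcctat
Rpl38 held the overlapping pyrimidine motifs TCTTTC and CTTTCC at its start, and its longest pyrimidine run there was 10 bases. Rps3a and Rplp0 had longest runs of 5 and 7 bases, and Rpl10 had 3.

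Within 20 bases either side of the start, on the coding strand, 4 pyrimidine motifs of TOP type were searched. CTTTCC was in 13.9% of the 72 windows of ribosomal protein genes and in 1.95% of all 32851 windows, CTCTTT in 12.5% and 1.54%, TCTTTC in 13.9% and 1.60%, and CTTTTC in 6.94% and 1.43%. At least 1 of these 4 overlapping motifs was in 20 of the 72 windows (27.8%), in 4.85% of 2000 windows of other genes with at least 100 CPM in WT, and in 5.15% of all windows. A pyrimidine run of at least 8 bases was in 43.1% of the windows of ribosomal protein genes, 17.5% of those of the other highly expressed genes and 16.0% of all. Over the whole window and on both strands, CCGGAAG, the core of ETS and GABP sites, was in 34.7% of the windows, in 19.8% of those of the other highly expressed genes and in 8.86% of all. AAGATGGC, the core of YY1 sites, was in 11.1%, 5.70% and 2.75% of the same sets, GGGCGG, the core of Sp1 sites, in 62.5%, 69.5% and 35.7%, and TATAAA in 9.72%, 6.20% and 13.6%. These are matches of letters in listed windows, some genes have several windows, and no test was made. The 20 genes with a pyrimidine motif and the 41 with windows but none had median log2-fold-changes against WT of -0.23 and -0.18 at OHT 3D, and of -0.82 and -0.83 at Tc 2D.

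The libraries held 17187595 to 37951742 reads on genes, and the scarcest of the 82 genes still had 574 reads in the shallowest library. Pontin itself (Ruvbl1) had a level of 198 CPM without OHT and of 33.3 and 50.9 CPM after 3 and 4 days of OHT, and stood at 85.0 CPM at Tc 2D and 148 to 188 in the shRNA libraries. Oct4 (Pou5f1) was at 21.1 CPM at Tc 2D against 301 in WT and 582 to 708 in the shRNA libraries. Over a list of 19 pluripotency genes the median change against WT was -0.02 on the log2 scale at OHT 3D and -2.81 at Tc 2D. The first 4 libraries and the 4 shRNA libraries were normalized in separate tables. Values are therefore tested within a table only. Those set across the tables also differ in infection, time of culture and, according to the paper, model of sequencer.

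Ribosomal protein mRNAs took 4.20% of all reads on genes in WT (95% Wilson interval 4.19% to 4.21%), 3.75% at OHT 3D (3.74% to 3.76%) and 5.04% at OHT 4D (5.03% to 5.05%). At Tc 2D they took 2.78% (2.77% to 2.79%). In the shRNA control libraries they took 7.32% and 6.66%, and in the linc1253 KD libraries 6.81% and 6.55%. The share was thus lowest at Tc 2D and was higher in each shRNA library than in every library of the first table. The intervals cover the counting of reads only, as no molecular identifiers tell copies of 1 molecule apart. In bulk samples such as these, fewer cells of a type and less RNA per cell cannot be told apart. The median CPM of the 82 genes was 348 in WT, 303 and 422 on days 3 and 4 of OHT, 197 at Tc 2D, 784 and 688 in shRNA control, and 702 and 683 in linc1253 KD. From high to low, 79 of the 82 genes and 11.7% of 13449 genes tested followed the order OHT 4D, WT, OHT 3D, Tc 2D.

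**Figure D1:**
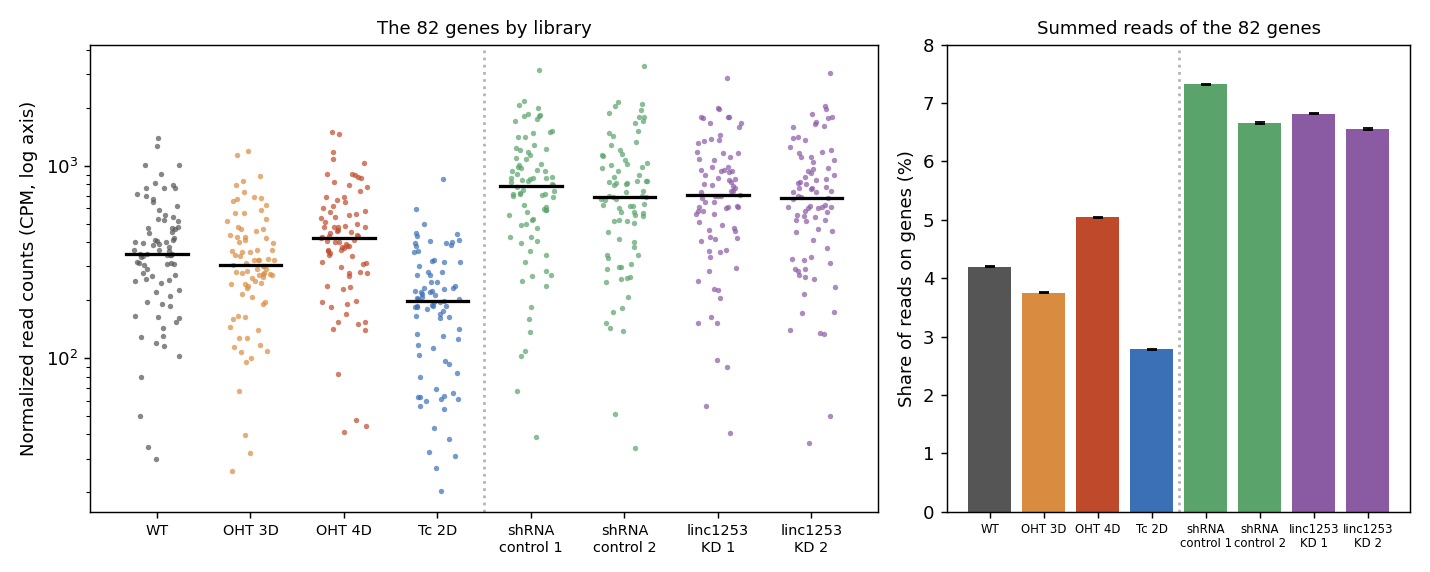
Left, normalized read counts (CPM, log axis) of the 82 ribosomal protein genes in each of the 8 mRNA libraries, 1 point per gene, with the median as a bar. Right, the percentage of reads on genes that the 82 genes took, with 95% Wilson intervals. A dotted line separates the tables normalized apart. The share ran from 2.78% at Tc 2D to 7.32% in shRNA control replicate 1.

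Levels between genes were compared in WT as CPM per kb of coding length. The highest were Rps24 at 1340, Rplp0, the anchor of the P stalk, at 1333, Rps9 at 1248, Rplp1, its partner in the stalk, at 1171, and Rps4x at 1146 CPM per kb. The value for Rps9 rests on 1 of several annotated coding lengths. Reads on untranslated parts were counted too but are not in the divisor, which raises genes with long untranslated parts. The mRNA used has 837 bases for Rps24, of which 402 are coding. It has 1347 for Rps9, of which 420 are coding, and 1422 for Rpl4, of which 1260 are. The order and the range given here therefore hold for coding length only. The lowest were Rps19bp1 at 68.7, Rpl22l1, a paralogue of Rpl22, at 93.3, Rpl23a at 106, Rpl35 at 214 and Rps4y2 at 317 CPM per kb. Rpl23a and Rpl35 are structural proteins of the large subunit. Counted reads for proteins found on the same ribosome thus ranged from 106 to 1340 CPM per kb of coding length. Rpl23a has 20 further copies of at least 95% identity in the genome and Rps24 has 8. How reads of such copies were split is uncertain, so these values need not be levels of mRNA. The most reads were taken by Rpl4 (1390 CPM), Rplp0 (1272), Rpsa (1006), Rpl3 (1005) and Rps4x (907). Without these 5, the share of reads kept its order over the first 4 libraries, with shares of 3.50%, 3.13%, 4.23% and 2.35% in WT and under OHT 3D, OHT 4D and Tc 2D.

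At OHT 3D, ribosomal protein mRNAs stood slightly below WT as a group, but none passed 1.5-fold. The median log2-fold-change, computed on log2 of CPM plus 1, was -0.19, which is 0.875-fold, with a standard deviation of 0.07 over the 82 genes. A log2-fold-change above 0.58 was reached by 0 of the 82 genes and by 6.01% of 13449 genes tested, and one below -0.58 by 0 of the 82 and by 5.88% of all. The change was below 0 in 81 of the 82 genes and in 52.4% of all genes, whose median was -0.02. Large and small subunit genes had medians of -0.20 and -0.19. Other genes with over 100 CPM in WT, 2056 of them, had a median of -0.05. Of these, only 17 were above 0.58 and 60 (2.92%) below -0.58, so few calls are found at such levels. With 1 library per time point there is no replicate check and no test.

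Rpl22l1 had the lowest log2-fold-change at OHT 3D, -0.39, from 34.4 CPM in WT to 26.0, followed by Rpl36 with -0.35 and Rps27 with -0.33. The only gene above 0 was Rps19bp1 with 0.11, one of the 2 that are not structural proteins. The next highest were Rps4y2 with -0.05 and Rpl7l1 with -0.05. Rplp0 stood at 1272 CPM in WT and 1132 at OHT 3D, and Rpl4, a core protein of the large subunit, at 1390 and 1189 CPM.

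At OHT 4D, ribosomal protein mRNAs stood slightly above WT, again within 1.5-fold. The median log2-fold-change was 0.25, or 1.19-fold, with a standard deviation of 0.08, and 81 of the 82 genes were above 0, against 49.6% of all genes. None of the 82 passed the threshold upwards, as 6.48% of all genes did, or downwards, as 8.89% did. The median over all genes was -0.003, and over other genes above 100 CPM it was -0.08. The highest were Rps27l and Rps19bp1 with 0.45 each and Rps19, a small subunit protein needed for 18S rRNA maturation, with 0.43. Rps27l, the paralogue of Rps27, had 102 CPM in WT, 95.6 on day 3 and 140 on day 4. The lowest were Rpl23a with -0.07, Rpl35 with 0.05 and Rpl4 with 0.08.

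Between the time points, all 82 genes were higher at OHT 4D than at OHT 3D, as 53.2% of all genes were. The median difference was 0.43 on the log2 scale, or 1.35-fold, against 0.03 over all genes and -0.01 over other genes above 100 CPM. Above 0.58 were 3 of the 82, Rpl22l1 with 0.75, Rpl36 with 0.61 and Rps14 with 0.60, and 5.47% of all genes. Of 2056 other genes above 100 CPM, 38 were. None of the 82 was above 1, as 0.461% of all genes were. Rps14 went from 278 CPM at OHT 3D to 424 at OHT 4D. The difference was larger in short genes. Its median was 0.46 in the 27 genes with a short coding sequence (156 to 399 bases), 0.44 in the 27 of middle length (402 to 555 bases) and 0.38 in the 28 with a long one (567 to 1260 bases). Across the 82 genes it had a Pearson correlation of -0.43 with log2 coding length (Spearman -0.45), and OHT 4D against WT had -0.37 (-0.39), while OHT 3D against WT had 0.10 (0.11). With log2 CPM in WT, the correlations were -0.28 (-0.34), -0.34 (-0.47) and -0.05 (-0.04) in the same order. Length and level were not separated. These are correlations across genes that share the same libraries, given as a description.

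For scale, ribosomal protein genes also differed between replicates of the shRNA libraries. The median log2 difference of replicate 2 from replicate 1 was -0.09 in shRNA control and -0.04 in linc1253 KD. Both were smaller in size than the medians on days 3 and 4 of OHT. By share of reads, the shRNA control replicates (7.32% and 6.66%) lay further apart in percentage points than WT (4.20%) and OHT 3D (3.75%). The linc1253 KD replicates (6.81% and 6.55%) lay closer together than these, and OHT 4D (5.04%) lay further from WT than either pair of replicates was apart. Those replicates are of the other line, and the difference between them was not tested against the OHT series. Markers of other cell types moved with OHT too, and their source was not tested. Of 21 fibroblast genes tested, of 24 in a list of feeder markers, 20 were above 0.58 at OHT 3D and 20 at OHT 4D, and their summed level was 61.3 CPM in WT, 368 on day 3 and 429 on day 4. Lum was listed at 0 in WT and at OHT 3D, as was Fap, and both were at 0.09 CPM at OHT 4D. Of 12 trophectoderm genes, 7 were above 0.58 at OHT 3D and 9 at OHT 4D, and of 13 primitive endoderm genes 5 and 10. In each of these 2 lists 1 gene was below -0.58 at OHT 3D, Eomes with -0.67 and Hnf4a with -0.71, and 0 were at OHT 4D. Over all genes, 6.01% and 6.48% were above 0.58 on days 3 and 4, and 5.88% and 8.89% below -0.58. The part of these markers in the levels of ribosomal protein genes was not tested.

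**Figure D2:**
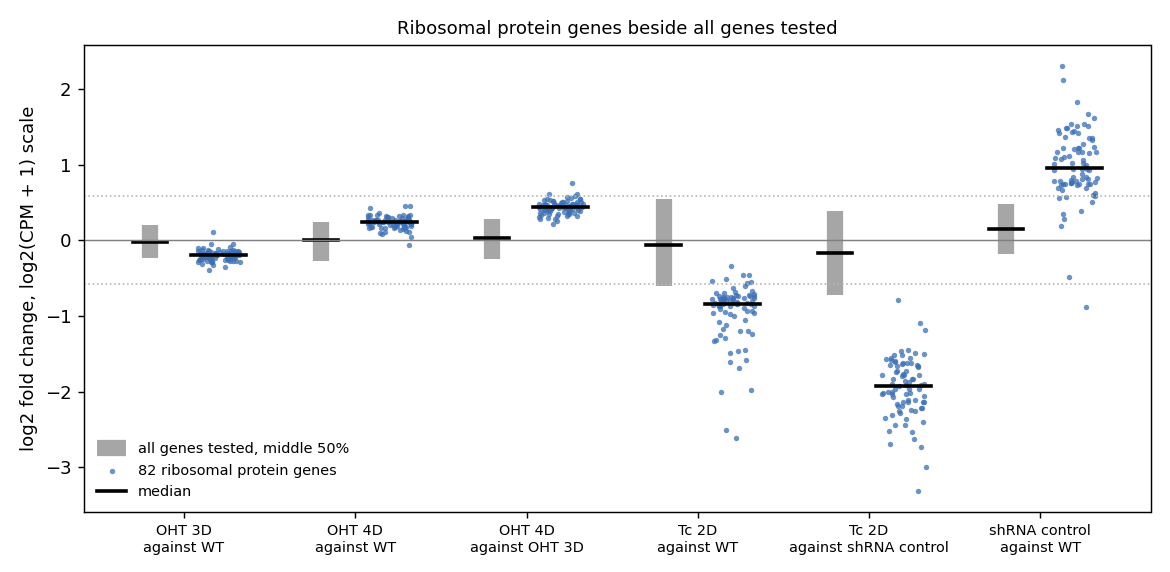
log2-fold-changes, on the log2(CPM + 1) scale, of the 82 ribosomal protein genes in 6 comparisons (1 blue point per gene, median as a bar), beside the middle 50% of all genes tested in grey with its median. Dotted lines mark 0.58 in either direction. The genes lie close together at OHT 3D (median -0.19) and OHT 4D (0.25) and spread more at Tc 2D (-0.84). The last 2 comparisons cross the tables normalized apart.

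In the Oct4-depleted Tc 2D library, ribosomal protein mRNAs stood below those in WT of the other line. Against WT, the median log2-fold-change at Tc 2D was -0.84, or 0.56-fold, and 75 of the 82 genes were below -0.58, against 25.8% of 13449 genes tested. Below -1 were 22 of the 82 and 12.6% of all genes. None was above 0.58, as 23.9% of all genes were. Every one of the 82 was below 0, against 52.8% of all genes. Other genes with over 100 CPM in WT also tended to be lower, with a median of -0.55 and 47.7% below -0.58. This comparison is between a depleted library of ZHBTc4 cells and an undepleted library of the other line, with 1 library each, so that line and depletion cannot be told apart, and no test was made. The CPM at Tc 2D summed to 638591 over all genes, against 798811 in WT. When libraries were instead scaled to the same number of reads on genes (library-size scaling), the median of the 82 was -0.51 with 29 genes below -0.58, while the median of all genes was 0.24, with 2203 of 13449 below -0.58 and 4756 above 0.58. Relative to all genes, the ribosomal protein genes were lower by 0.78 on the log2 scale with the deposited values and by 0.76 with library-size scaling.

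Large and small subunit genes had medians of -0.84 and -0.81 at Tc 2D against WT. Individual genes spread widely, with a standard deviation of 0.41. The largest falls were those of Rpl34 and Rpl29, large subunit proteins. Rpl34 (ENSMUSG00000062006, chromosome 3 of NCBIM37, 130429749 to 130433316) had 195 CPM in WT, 166 and 233 on days 3 and 4 of OHT, 30.9 at Tc 2D, 136 and 143 in shRNA control, and 153 and 140 in linc1253 KD. Rpl29 (ENSMUSG00000048758, chromosome 9, 106331785 to 106333899) had 220, 196, 278 and 37.9 CPM in the same first 4 libraries, 102 and 139 in shRNA control, and 89.4 and 134 in linc1253 KD. Both were therefore lower in all 5 ZHBTc4 libraries than in the 3 libraries of the other line, and lowest at Tc 2D. Their log2-fold-changes at Tc 2D against WT were -2.62 for Rpl34 (95% counting interval -2.72 to -2.51) and -2.51 for Rpl29 (-2.60 to -2.41).

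Next came Rps3a, a small subunit protein whose start is printed above, with -2.01. It had 672 CPM in WT, 592 and 741 on days 3 and 4 of OHT, 166 at Tc 2D, 806 and 1136 in shRNA control, and 727 and 1046 in linc1253 KD. In CPM the Tc 2D library was the lowest of the 8, and the shRNA replicates numbered 1 were below those numbered 2. Rps4y2, an Rps4 gene that RefSeq names Rps4l, had 250, 242, 314 and 62.9 CPM in the first table and 313 to 395 in the shRNA libraries, a log2-fold-change of -1.97 against WT. Rplp0 had 1272, 1132, 1499 and 396 CPM in the first table, 1812 and 2141 in shRNA control, and 1664 and 1860 in linc1253 KD, and its log2-fold-change was -1.68. Rpl22 had -1.60, Rpl39, at the exit of the peptide tunnel, -1.58, and Rpl30 -1.49.

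At the other end, 7 genes did not pass 1.5-fold. Rpl22l1 had a log2-fold-change of -0.35, Rps19 of -0.46 and Rpl35a of -0.46, and Rps12, Rps19bp1, Rpl24 and Rpl14 were the others. Rps19 had 269 CPM in WT, 243 and 362 on days 3 and 4 of OHT and 195 at Tc 2D. The paralogues Rpl22 and Rpl22l1 thus lay at opposite ends, with 344 CPM in WT and 113 at Tc 2D for Rpl22, against 34.4 and 26.9 CPM for Rpl22l1. Of the other paralogue pairs, Rps4x had -0.87 and Rps4y2 -1.97, Rps27 -1.25 and Rps27l -0.73, Rpl7 -0.98 and Rpl7l1 -1.34, and Rpl36a -1.24 and Rpl36al -1.20.

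Against the shRNA control of the same line, the difference was larger. The median log2-fold-change of Tc 2D against the mean of the shRNA control libraries was -1.92, or 0.264-fold. All 82 genes were below -0.58, against 30.7% of 13586 genes tested, and all were below 0, against 58.5%. Other genes with over 100 CPM in WT had a median of -0.67, with 56.7% below -0.58. Tc 2D lay below all 4 shRNA libraries for each of the 82, as it did for 50.3% of all genes. With library-size scaling the median was -1.28 with 79 genes below -0.58, and the median of all genes moved from -0.17 to 0.43, with 1906 of 13586 below -0.58 and 5780 above 0.58. The shRNA cells were infected, cultured for another time and normalized in another table. According to the paper, their libraries were also run on another model of sequencer. No test was made, and depletion cannot be told apart from these differences.

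The largest fall in this comparison was that of Rps28. This gene, which encodes a small subunit protein of the mRNA exit channel, had 129, 108, 154 and 63.6 CPM in the first table but 721 and 565 in shRNA control, and 612 and 542 in linc1253 KD. Its log2-fold-change was -3.31 against shRNA control and -1.003 against WT. Rpl37a had -2.99, Rplp1 -2.72, Rps12 -2.69 and Rps29 -2.62, followed by Rps4y2 with -2.53 and Rps3a with -2.52. The smallest were Rps19bp1 with -0.79, Rpl22l1 with -1.09 and Rps19 with -1.19.

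The undepleted libraries themselves differed in these genes. The shRNA control libraries were higher than WT by a median of 0.96 on the log2 scale, or 1.94-fold, against a median of 0.14 over all genes and over other genes above 100 CPM. Of the 82 genes, 73 were above 0.58, against 20.1% of 13347 genes tested, and 80 were above 0, against 62.2%. Only Rpl29 was below -0.58, at -0.88, as 9.93% of all genes were. With library-size scaling the median was 0.64 with 46 genes above 0.58 and 2 below -0.58. The median of all genes then moved to -0.15, with 1575 of 13347 above 0.58 and 2683 below -0.58, against 2680 and 1326 with the deposited values. Rps28 had the largest difference, 2.30, followed by Rps12 with 2.12 and Rpl23a with 1.83. Cell line, infection, run and table cannot be told apart here, and no test was made.

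Levels were also compared apart from the common shift. Each gene's log2 level was taken relative to the median of the 82 in its own library, which removes the scaling between libraries. Of the 82 genes, 21 were lower in all 5 ZHBTc4 libraries than in all 3 libraries of the Pontinf/f; CreER line, and 12 were higher in all 5. Over the 13984 genes that exceeded 1 CPM in some library, taken relative to their own median, 12.6% were lower in all 5 and 12.8% higher. A gap of more than 0.5 was found for Rpl34, Rpl29, Rpl22 and Rps4y2, all lower in ZHBTc4, and for none of the 12, and for 2.3% of all genes downwards and 2.58% upwards. Line, treatment and time of culture cannot be told apart in these counts. Rpl34 lay between -0.86 and -0.83 in the Pontinf/f; CreER line and between -2.63 and -2.19 in ZHBTc4, and Rpl29 between -0.66 and -0.60 and between -2.96 and -2.30. Rpl22 lay between -0.17 and -0.02 against -0.95 and -0.80, and Rps4y2 between -0.48 and -0.32 against -1.63 and -0.98. The low level of Rpl34, Rpl29 and Rpl22 at Tc 2D against WT was thus also present in the undepleted shRNA libraries once the common shift was removed. Rps3a was also among the 21. It lay between 0.81 and 0.96 in the Pontinf/f; CreER line, at 0.04 and 0.05 in the shRNA replicates numbered 1, at 0.72 and 0.61 in those numbered 2 and at -0.25 at Tc 2D, the lowest of the 8.

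Rps28 stood between -1.48 and -1.43 in the Pontinf/f; CreER line, at -1.62 at Tc 2D and between -0.33 and -0.12 in the shRNA libraries, so that Tc 2D lay with the libraries of its own table and not with those of its own line. Rps12 stood at 0.20 to 0.26, 0.46 and 1.23 to 1.35 in the same groups. Over the 82 genes, log2 CPM had Pearson correlations of at least 0.997 between libraries of the Pontinf/f; CreER line and at least 0.981 between shRNA libraries. Tc 2D had at least 0.927 with the former and at least 0.928 with the latter. These describe the libraries and are no test.

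**Figure D3:**
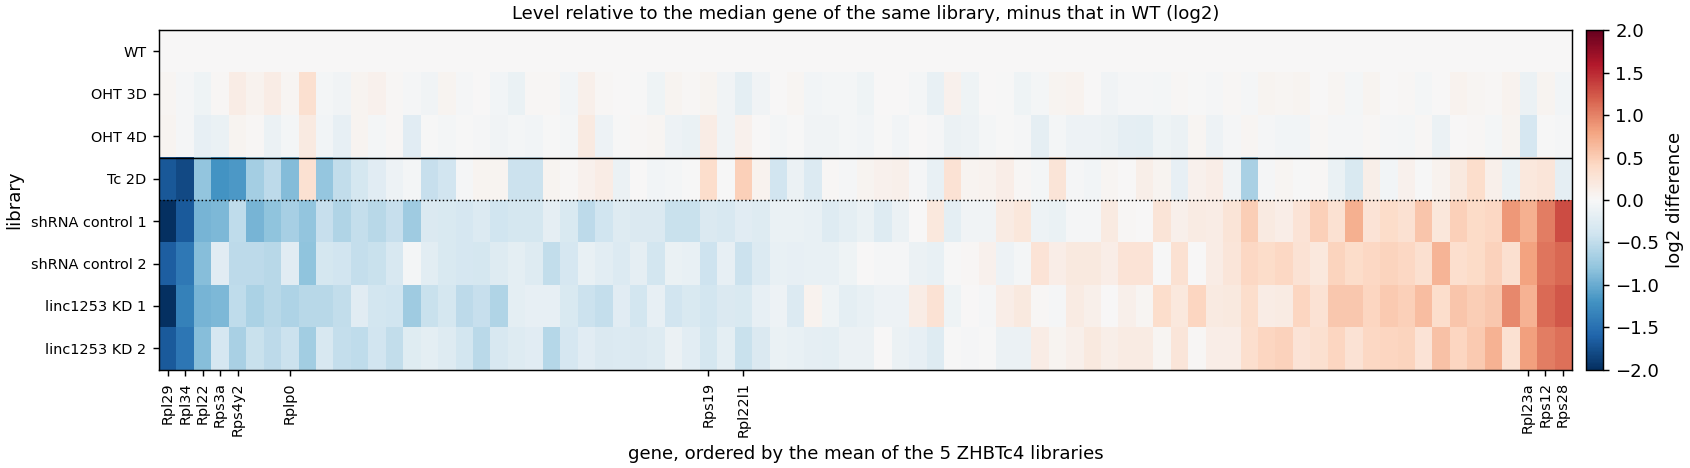
Level of each gene relative to the median of the 82 ribosomal protein genes in the same library, minus that in WT (log2, colour), for the 8 libraries from top to bottom and 81 of the 82 genes ordered by the mean of the 5 ZHBTc4 libraries, with some of those described in the text labelled. The solid line separates the Pontinf/f; CreER line from ZHBTc4 and the dotted line separates the tables. Rpl29 and Rpl34 at the left are low in all 5 ZHBTc4 libraries, and Rps28 at the right is high in the 4 shRNA libraries only.

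Reads shared with near-identical copies in the genome are a limit of all these values. Aligned against NCBIM37, 76 of the 82 genes had at least 1 further stretch of at least 95% identity over 80% of the coding sequence, and Rpl21 had 56. How the authors' alignment, with up to 10 locations per read, split such reads is uncertain. The 6 genes with no copy had medians against WT of -0.15 and 0.31 on days 3 and 4 of OHT and of -0.81 at Tc 2D. Those with 1 to 9 copies (58 genes) had -0.20, 0.24 and -0.85, and those with 10 or more (18 genes) -0.17, 0.25 and -0.82. In each of these comparisons 81 or all of the 82 genes shared a direction, so a split by copies could not have shown another one. The 6 genes with no copy include Rps19bp1. The part of shared reads in these values was not tested. Rpl29 had 28 such copies and Rpl34 had 5, while Rps4y2 had 0. At Tc 2D against WT, medians by length were -0.86, -0.77 and -0.85 in genes of short, middle and long coding sequence, as grouped above. Against shRNA control the medians were -2.07, -1.86 and -1.76, and the Pearson correlation with log2 coding length over the 82 genes was 0.25 (Spearman 0.24), so that shorter genes fell more in that comparison.

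Genes that work beside the ribosomal proteins were taken as further lists. Ribosomal proteins with other symbols are Fau, made as a fusion with a ubiquitin-like domain, and Gnb2l1 (Rack1). Fau had a log2-fold-change against WT of -1.08 at Tc 2D, and of -0.31 and 0.27 on days 3 and 4 of OHT. Gnb2l1 had -0.82 at Tc 2D, and -0.22 and 0.24 on those days. Of 15 elongation and initiation factors and other mRNAs with TOP motifs, 14 fell past 1.5-fold at Tc 2D against WT. Of all genes 25.8% did. The list had a median of -0.79 at Tc 2D, and of -0.16 and 0.13 on days 3 and 4 of OHT. On those days 0 were past the threshold. Eef1a1, the elongation factor that delivers aminoacyl-tRNA, had 2918, 2625, 3031 and 1915 CPM in the first table and 12565 to 13862 in the shRNA libraries.

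Genes of ribosome assembly moved in part. Of 39 ribosome biogenesis genes, 24 fell past 1.5-fold at Tc 2D against WT, with a median of -0.70, and Nop10, of the H/ACA ribonucleoprotein, fell most, with a log2-fold-change of -3.18. On days 3 and 4 of OHT this list had medians of -0.01 and 0.16 with 0 genes past the threshold. Of 14 genes of RNA polymerase I and its factors, 6 fell at Tc 2D, with a median of -0.48, and the medians on days 3 and 4 of OHT were 0.17 and 0.12. These lists did not stand below WT at OHT 3D the way the 82 genes did. Of 14 p53 target genes, often induced when ribosome assembly is disturbed, 3 rose past 1.5-fold at OHT 3D, namely Perp with 0.92, Mdm2 with 0.79 and Phlda3 with 0.62, and the list had a median of 0.40. At OHT 4D the median was 0.24 and 2 were above 0.58, Phlda3 with 1.03 and Perp with 0.91, while Mdm2 had 0.32. Of all genes, 6.01% were above 0.58 at OHT 3D and 6.48% at OHT 4D. At Tc 2D against WT 3 of the p53 targets were above 0.58 and 3 below -0.58, against 23.9% and 25.8% of all genes. Against shRNA control 7 were above and 0 below, with a median of 0.60, against 2480 and 4171 of 13586 genes. In shRNA control against WT 1 was above and 6 were below, against 20.1% and 9.93% of all genes. Trophectoderm genes moved at Tc 2D as well, with 11 of 12 above 0.58 and summed levels of 91.8 CPM in WT and 543 at Tc 2D. Of 13 primitive endoderm genes 6 were above 0.58 and 1 below -0.58, with summed levels of 455 and 767 CPM, and of 21 fibroblast genes 4 were above and 7 below, with 61.3 and 75.6 CPM. The part of these lists in the levels of ribosomal protein genes was not tested.

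On linc1253 knockdown, no ribosomal protein gene passed the test without a replicate block. With limma on log2 of CPM plus 1, 2 libraries against 2, 0% of 13407 genes had an adjusted p under 0.05 in either direction, upwards (0%) or downwards (0%), and 0 of the 82 did. At an unadjusted p under 0.05, limma had 496 genes higher and 503 lower, and again 0 of the 82. With the quasi-likelihood test of edgeR 0 of the 82 passed, and with DESeq2 0 passed and 1 had an unadjusted p under 0.05. When the replicate number was taken as a block, limma called 4 of the 82 lower and 0 higher. Over all 13407 genes it then called 1027 lower and 933 higher. The labels name no shared origin of same-numbered libraries. The labels do not say that replicates are separate cultures, so that these p-values measure only the spread between these libraries.

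The median log2-fold-change of the 82 genes was -0.08, against -0.001 over all genes, and 66 of them were below 0, against 50.2% of all genes. Both KD libraries were below both control libraries for 22 of the 82 genes and for 19.2% of all, and above both for 1 gene and for 18.8%. The lowest was Rpl13a, a large subunit protein, with 1212 and 1004 CPM in shRNA control and 954 and 878 in linc1253 KD. The KD libraries were both below the controls, with a log2-fold-change of -0.27 (SE 0.12). Rpl13a did not pass with limma without a replicate block (adjusted p = 0.689), but did with limma and the block (adjusted p = 0.0105). Rpl28 had -0.21 (SE 0.11) and Rplp1 -0.20 (SE 0.19). The highest were Rpl32 with 0.10 (SE 0.10), Rpl30 with 0.10 (SE 0.11) and Rps19bp1 with 0.09 (SE 0.12). Single libraries moved these values. Rpl13a was at -0.13 without shRNA control replicate 1 and -0.40 without replicate 2. Rpl28 was at -0.09 without linc1253 KD replicate 1 and -0.34 without replicate 2. Rpl32 was at 0.17 and 0.02 without shRNA control replicates 1 and 2, and at 0.16 and 0.04 without linc1253 KD replicates 1 and 2. Rplp1 turned to 0.07 and Rpl30 to -0.0056 without shRNA control replicate 1, and Rps19bp1 to -0.0077 without shRNA control replicate 2 and to -0.0008 without linc1253 KD replicate 1. The share of reads was 6.68% ± 0.18 (SD, n = 2) in linc1253 KD and 6.99% ± 0.47 (SD, n = 2) in shRNA control. The difference of -0.31 percentage points was smaller than the standard deviation of the controls (exact permutation test, two-sided, p = 0.667), and the smallest p that 2 against 2 libraries can give is 0.333. Leaving out shRNA control replicate 1 turned it to 0.03, and the median log2-fold-change was then -0.03. Deviations of same-numbered libraries had a correlation of 0.82 over the 82 genes, and leaving out 1 library leaves its same-numbered library unmatched. Between libraries of the same number, the median difference of KD from control was -0.10 for replicates 1 and -0.03 for replicates 2. Over all genes these medians were -0.0002 and -0.004. The summed fibroblast markers were 155 and 133 CPM in shRNA control and 160 and 191 in linc1253 KD.

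Replicates of 1 group also differed in these genes. The log2 difference of replicate 2 from replicate 1 had a standard deviation over the 82 genes of 0.22 in shRNA control and 0.22 in linc1253 KD. shRNA control replicate 1 was above replicate 2 for 60 of the 82 genes and for 51.7% of all genes, and linc1253 KD replicate 1 was above its replicate 2 for 49 of the 82 and 51.9% of all. Rps29, the shortest protein of the small subunit here, had 492 and 296 CPM in the controls and 472 and 291 in the KD libraries. Rps3a went the other way, as given above. The difference between control replicates followed coding length, with medians of 0.18, 0.11 and 0.02 (replicate 1 over replicate 2, log2) in the short, middle and long genes and a Pearson correlation of -0.35 with log2 coding length over 82 genes (Spearman -0.36). In the KD replicates the medians were 0.10, 0.06 and 0.01 and the correlation was -0.17 (-0.14). With log2 CPM in WT, the correlations were -0.23 (-0.28) in the controls and -0.10 (-0.11) in the KD replicates.

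**Figure D4:**
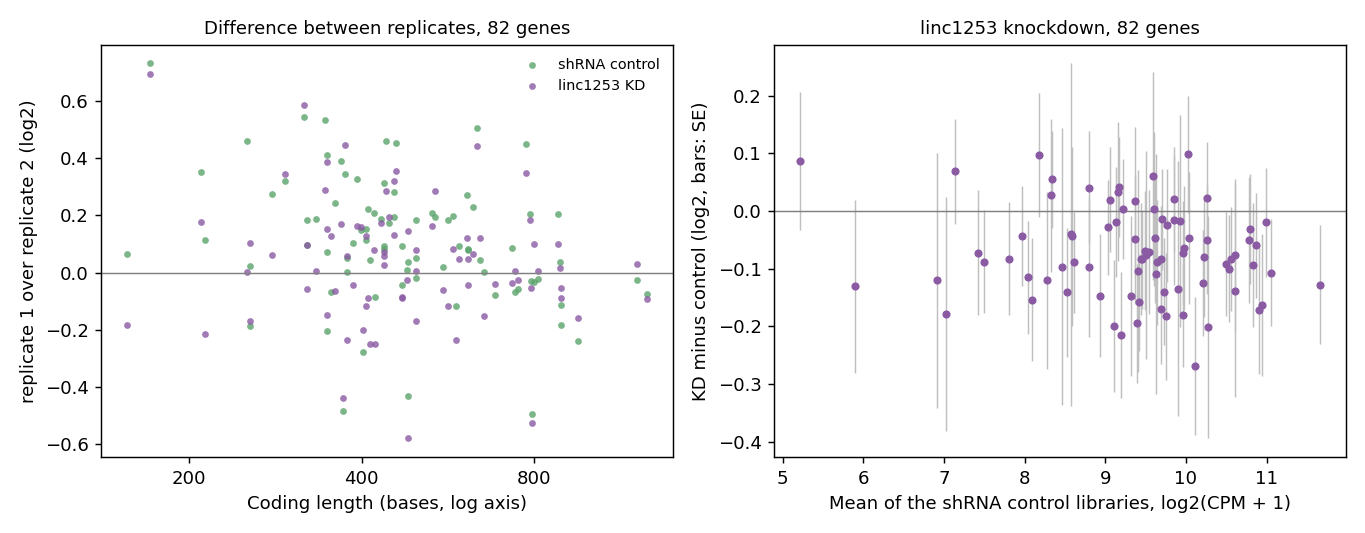
Left, replicate 1 over replicate 2 (log2) of the 82 genes against coding length in bases (log axis), for shRNA control and linc1253 KD. Right, linc1253 KD minus shRNA control (log2, bars: SE of limma) against the mean level of the control libraries on the log2(CPM + 1) scale. Control replicate 1 is the higher for 60 of the 82 genes at the left. None of the differences at the right passed the test without a replicate block.

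Pontin ChIP reads lay over the starts of ribosomal protein genes. Reads were counted from 2.5 kb upstream to 500 bases downstream of each start in NCBIM37, and scaled by library size (40729076 Pontin reads and 17185883 GFP reads). The median promoter of the 82 genes had 104.5 Pontin and 31 GFP reads, and the median log2 ratio of Pontin over GFP was 0.53, or 1.44-fold, with the middle 50% between 0.17 and 0.89. Of the 82 promoters, 71 were above 0, as were 70% of 21143 promoters with reads in both libraries, whose median was 0.34. Other genes above 100 CPM in WT had a median of 0.49, those of 10 to 100 CPM 0.48, and those under 1 CPM 0.14. The 82 promoters were thus close to other highly expressed genes, with their median above 53.2% of these. With 1 library per antibody there is no replicate check and no test.

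The highest ratio was at Rpl7, a large subunit protein, with 123 Pontin and 14 GFP reads and a log2 ratio of 1.89 (95% counting interval 1.09 to 2.69). Rps27a, which is made as a fusion with ubiquitin, had 150 and 23 reads and a log2 ratio of 1.46, and Rps19 had 109 and 17 reads and 1.44. Rpl38 and Rpl10, whose starts are printed above, followed with 1.33 and 1.31. At the other end, Rps14 had 65 and 52 reads and a log2 ratio of -0.92 (-1.45 to -0.40), Rpl8 93 and 66 reads and -0.75, and Rps13 127 and 79 reads and -0.56. All 3 promoters had more GFP reads than the median of 31, and Rps14 and Rpl8 also had fewer Pontin reads than the median of 104.5. Large and small subunit genes had medians of 0.54 and 0.52. For 13 of the 82, another gene starts within 1 kb on the other strand, and its reads fall in the same window.

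Along the gene, Pontin reads of the 82 promoters were highest in the 100 bases centred 50 bases after the start, with 1.45 CPM per kb and promoter against 0.639 for GFP. At the ends of the profile they were 0.693 and 0.589. The other genes above 100 CPM peaked 250 bases after the start, at 1.08 against 0.511. The ratio at the peak was 2.27 in the former and 2.11 in the latter. With 1 kb either side of the start counted instead, the median log2 ratio was 0.61 for the 82 and 0.53 for all promoters.

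**Figure D5:**
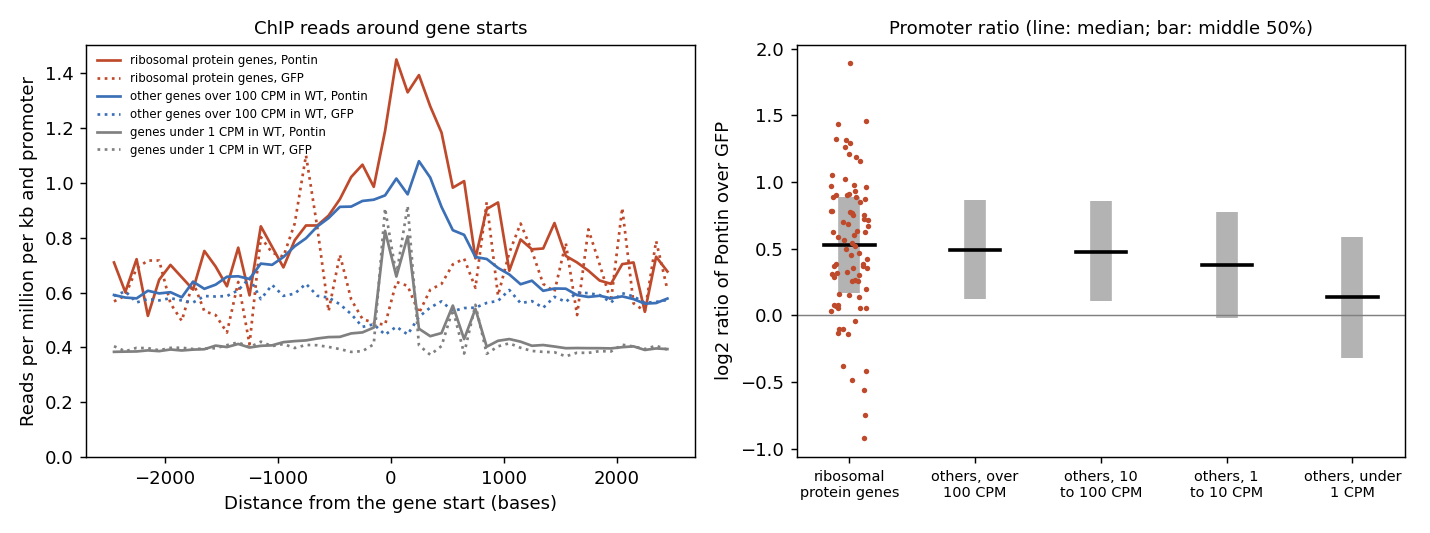
Left, ChIP reads scaled by library size (CPM per kb and promoter) by distance from the gene start in bases, for Pontin (solid) and GFP (dotted), over the 82 ribosomal protein genes, other genes over 100 CPM in WT and genes under 1 CPM. Right, log2 ratio of Pontin over GFP at promoters, with 1 point per ribosomal protein gene, and the median and middle 50% for each class. The median was 0.53 for ribosomal protein genes and 0.49 for other genes over 100 CPM.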

How the data were processed

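According to the study's methods, cutadapt trimmed the mRNA reads, TopHat placed them on NCBIM37 (up to 2 mismatches and 10 locations), HTSeq counted them per gene and edgeR scaled the counts by TMM. Versions are not given in the sources used here. The authors deposited CPM in 2 tables of 4 libraries, normalized separately. Each value was a whole number of reads within 0.01 read for 100% of values, which gave the depths (17187595 to 37951742 reads on genes). ChIP reads were trimmed, aligned to NCBIM37 with Bowtie2 and kept if unique. The deposited lines, 1 per read, carry a mapping quality score, and no duplicates were removed for the main values.

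Symbols were matched for 22337 of 22713 IDs. Genes above 1 CPM in at least 1 library compared were kept and a pseudocount of 1 was used. With 1 library per condition a call was an absolute log2-fold-change above 0.58, which is 1.5-fold. Intervals on these rest on read counts. The linc1253 knockdown was fitted with limma 3.58.1 with trend and Benjamini-Hochberg adjustment over all genes, 2 libraries against 2, and repeated with edgeR 4.0.16 and DESeq2 1.42.0 on the recovered reads. The scripts were first run on simulated data with changes larger than those seen on knockdown, which says nothing of the power to call small ones. Copies of coding sequences in the genome were found with BLAST 2.17.0. Python 3.11.15 with pandas 2.3.3, scipy 1.17.1 and R 4.3.3 were used.

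The genes, lists and tests were chosen with earlier results of these data known. Named genes were, per comparison, those past 1.5-fold, at most 8 in each direction, and in any case the 3 highest and 3 lowest, with paralogues, the P stalk and the 5 highest and lowest per coding length or ChIP ratio. Promoters were printed for genes with 1 listed window. Not every gene so selected is reported here. Alternatives were pseudocounts of 0.5 and 3, other filters and scalings, a log2-fold-change above 1, other tools, a replicate block, leaving out each shRNA library, and other ChIP windows. OHT 4D against OHT 3D and the left-out libraries for the share of reads were added after seeing the data.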

Additional observations from a re-analysis of the deposited data

Results flagged for a closer look

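The 82 ribosomal protein genes moved in opposite directions at the time points of OHT. Their median log2-fold-change against WT was -0.19 at OHT 3D, with 81 of 82 genes below 0, and 0.25 at OHT 4D, with 81 of 82 above 0. The comparisons share the WT library and rest on 1 library each, so the difference was not tested. Both directions held under each scaling tried.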

How the results depend on the processing

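In every comparison with 1 library per condition, the median of the 82 genes kept its direction under each scaling tried. The filters removed none of the 82, and the pseudocounts were small beside their levels. Those alternatives could not have turned the direction and are no check of it. With library-size scaling (no TMM factor), the median at Tc 2D was -0.51 against WT, with 29 genes below -0.58, and -1.28 against shRNA control, where median-ratio scaling gave -1.74 and leaving out a control library gave -2.01 to -1.84. At a threshold of 1, 22 genes passed downwards at Tc 2D against WT, against 12.6% of all genes. At OHT 4D against OHT 3D 0 passed upwards, against 0.461% of all genes. Over all genes, the calls at Tc 2D against WT went from 3218 higher and 3474 lower to 4756 and 2203 with library-size scaling, and those against shRNA control from 2480 and 4171 to 5780 and 1906 (3299 and 3340 with median-ratio scaling). For shRNA control against WT they went from 2680 and 1326 to 1575 and 2683. Without the 5 genes with the most reads, the shares of reads were 3.50%, 3.13%, 4.23% and 2.35% in the first table, 6.24% and 5.56% in shRNA control, and 5.80% and 5.51% in linc1253 KD.

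For linc1253 knockdown, the median ranged from -0.12 to -0.028 with 1 library left out, and the difference in share from -0.64 to 0.025, turning only without shRNA control replicate 1. Rpl30 ranged from -0.0056 to 0.20 and Rplp1 from -0.47 to 0.066, both turning without that library, and Rps19bp1 from -0.0077 to 0.18, turning without shRNA control replicate 2 and (-0.0008) without linc1253 KD replicate 1. In these cases the cause was not tested. Labels give both groups the same replicate numbers but no shared origin. With the replicate number as a block, limma called 4 of the 82 lower (Rpl13a, Rpl28, Rpl35 and Rpl37a) and 933 genes higher and 1027 lower in all, and deviations of same-numbered libraries had a correlation of 0.67 over 13407 genes and of 0.82 over the 82. DESeq2 called 22 and 28 genes.

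The median ChIP ratio was 0.19 when scaled to the median promoter and 0.61 with 1 kb either side of the start, where it exceeded that of all promoters by 0.078. With at least 50 GFP reads required, which keeps 5 of the 82 promoters for their high control count, it was -0.56, and 0.063 above that of all promoters kept.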

Other observations

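Rpl10l and Rpl39l, paralogues outside the minimum, differed between the tables. Rpl10l, a copy of Rpl10 without introns, had 8.14, 11.7, 11.8 and 3.95 CPM in the first table (WT, OHT 3D, OHT 4D and Tc 2D), and 105, 70.3, 103 and 73.7 CPM in the shRNA control and linc1253 KD libraries. Rpl39l, the paralogue of Rpl39, had 0.79 to 1.07 CPM in the first table and 37.7 to 48.3 in the shRNA libraries. Rpl3l, the muscle paralogue of Rpl3, stayed between 1.13 and 2.78 CPM in all 8. Tc 2D, a library of the ZHBTc4 line, was thus near the libraries of its own table for Rpl10l and Rpl39l.

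Of 55 ribosomal protein pseudogenes listed in the tables, 13 were above 1 CPM in at least 1 library and 5 above 10 CPM. Rpl15-ps2 had 0.18 CPM in WT, 0.18 and 0.39 on days 3 and 4 of OHT, 19.98 at Tc 2D and 116, 83.5, 130 and 78.0 CPM in the shRNA libraries. Rps13-ps1 was listed at 0 in WT and at OHT 3D, and had 0.13 CPM on day 4 of OHT, 13.4 at Tc 2D and 24.99 to 35.6 in the shRNA libraries. Both were thus near the floor in the Pontinf/f; CreER line and present in all 5 ZHBTc4 libraries. Processed pseudogenes can be near-identical to their parent genes, so that reads of one may have been counted on the other.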
